A study of Mus musculus with 12 samples.

Results

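Serpins are a family of proteins, most of them serine protease inhibitors. In the deposited expression table of mouse kidney, 60 of 43346 listed genes were protein-coding genes with a symbol made of Serpin, a clade letter from a to i and a number. Clade A held 23 of them, clade B 26, clade E 3, clades F and I 2 each, and clades C, D, G and H 1 each. At least 1 count was listed for 55 of the 60 genes, and 34 had enough counts to be tested. The 5 genes without a count were Serpina12, Serpinb3a, Serpinb3d, Serpinb6d and Serpinb13.

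An inhibitory serpin presents an exposed reactive loop as bait. The target protease cuts the loop, the serpin refolds around it, and the enzyme is held in a covalent complex that is cleared by receptors of the LDL receptor family. Secreted serpins control coagulation, fibrinolysis, complement and inflammatory proteases, and many of them circulate from the liver. Clade B serpins lack a classical signal peptide and mostly act inside cells. Some serpins inhibit no protease and instead carry hormones or help collagen to fold.

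RNA of mouse kidney was compared 1 day after HP-AKI, in 6 libraries numbered 7, 8, 9, 11, 12 and 13, with sham treatment in 6 libraries numbered 1 to 6. The labels do not spell out HP-AKI, which in kidney research usually means acute kidney injury caused by heme proteins. Genotype, strain, age, sex, agent and dose are not given in the sources used here, and neither is a number of animals. Whether libraries of a group come from separate animals is not given either, so p-values rest on a spread among libraries that may be technical.

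Counts summed over genes ran between 31624522 and 40630917 per HP-AKI library and between 35201197 and 41951129 per sham library. Levels are given as CPM, which scales the counts of each library to a common total with TMM factors, and SD and n refer to the 6 libraries of a group. All 9 proximal tubule markers, the defining genes of the main kidney epithelium, were lower in HP-AKI, against 35.2% of all genes tested. Their summed level was 22250 to 28970 CPM in HP-AKI and 45130 to 69600 CPM in sham. Most of that sum was 1 gene, Kap, with 23220 ± 2812 CPM in HP-AKI and 43200 ± 9292 CPM in sham. The log2 fold change, HP-AKI over sham, was -0.90 for Kap, and the median over the 9 markers was -1.95. All 5 markers of injured tubule were higher, against 37.7% of all genes tested, at a summed 3428 to 4064 CPM in HP-AKI and 23.3 to 31.6 CPM in sham. The groups separated along the first principal component of all tested genes, which held 81.3% of the variance. On the second, with 7.85%, HP-AKI 8 and sham 1 and 2 lay at 1 end. In whole tissue, fewer cells of a type and less RNA per cell cannot be told apart, and this holds for every serpin below.

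The serpin changes were strongly divided between near neighbours on chromosome 12, so the bases upstream of 5 of these genes are shown before their values. Serpina1d and Serpina1a encode forms of alpha-1-antitrypsin, and Serpina3n, Serpina3i and Serpina3g belong to the antichymotrypsin group. Each window covers the 250 bases before the RefSeq start on GRCm38.p6, written 5′ to 3′ along the gene's strand. The windows are chr12:103773634-103773883 on the minus strand for Serpina1d, chr12:103863620-103863869 on the minus strand for Serpina1a, chr12:104406458-104406707 on the plus strand for Serpina3n, chr12:104262872-104263121 on the plus strand for Serpina3i and chr12:104235897-104236146 on the plus strand for Serpina3g. Capitals mark matches on either strand to the AP-1 letters TGANTCA, the STAT letters TTCNNNGAA, the SMAD letters CAGACA or the HNF1-type letters GTTAATATTCAC.
Serpina1d: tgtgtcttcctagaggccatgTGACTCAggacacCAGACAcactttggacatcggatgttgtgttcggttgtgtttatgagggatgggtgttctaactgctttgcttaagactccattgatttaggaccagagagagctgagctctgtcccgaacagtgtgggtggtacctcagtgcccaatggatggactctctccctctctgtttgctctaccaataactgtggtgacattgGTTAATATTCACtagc
Serpina1a: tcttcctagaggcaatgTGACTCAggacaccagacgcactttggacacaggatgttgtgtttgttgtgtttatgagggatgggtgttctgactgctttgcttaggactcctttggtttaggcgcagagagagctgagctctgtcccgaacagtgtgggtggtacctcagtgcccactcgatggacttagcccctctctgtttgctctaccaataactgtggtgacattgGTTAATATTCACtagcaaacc
Serpina3n: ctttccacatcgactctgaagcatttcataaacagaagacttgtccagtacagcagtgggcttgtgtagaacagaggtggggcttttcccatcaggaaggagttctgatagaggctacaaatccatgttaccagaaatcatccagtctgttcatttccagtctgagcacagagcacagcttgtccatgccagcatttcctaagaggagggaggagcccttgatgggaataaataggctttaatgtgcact
Serpina3i: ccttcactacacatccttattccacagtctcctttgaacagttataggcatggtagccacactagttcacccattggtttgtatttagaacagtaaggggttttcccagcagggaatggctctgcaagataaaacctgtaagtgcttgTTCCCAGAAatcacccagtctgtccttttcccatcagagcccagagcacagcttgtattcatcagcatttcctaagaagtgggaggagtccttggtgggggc
Serpina3g: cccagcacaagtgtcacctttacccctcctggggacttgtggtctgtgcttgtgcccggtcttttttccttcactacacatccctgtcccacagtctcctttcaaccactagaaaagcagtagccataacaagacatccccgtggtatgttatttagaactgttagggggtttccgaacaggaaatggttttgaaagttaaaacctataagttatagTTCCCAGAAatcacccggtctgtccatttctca

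The windows of Serpina1a to Serpina1e were 91.6% to 97.0% identical, and those of Serpina3n and Serpina3i 69.7% identical. RefSeq promoters were matched for 51 of the 60 genes, and some genes had more than 1, which gave 60 serpin promoters. The 12 letters GTTAATATTCAC were taken from the Serpina1d window itself, after these sequences had been read. They stood in 5 of 32851 mouse promoters (0.0152%), and these were Serpina1a, Serpina1b, Serpina1c, Serpina1d and Serpina1e. Because the letters come from 1 of these near-identical windows, the count describes their likeness and tests nothing. The AP-1 letters stood in 11 of the 60 serpin promoters, with 6.75% of all promoters holding them. Serpina1a, Serpina1b, Serpina1c and Serpina1d, whose windows are near-identical, were among these. Those of STAT stood in 10 serpin promoters, with 7.02% of all promoters, and the SMAD letters in 10, with 17.1%. Both orders of the 3-block heat shock element stood in 0 serpin promoters and in 0.466% of all promoters each. The TATA letters TATAAA stood in 17 of the 60 and in 12.4% of all promoters. The Serpina3n window held no AP-1, STAT or SMAD match, whereas Serpina3i and Serpina3g each held 1 STAT match. A match is a description of letters and not a binding site.

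Of the 34 tested serpins, 28 passed an adjusted p of 0.05 (82.4%), against 72.8% of all 17470 genes tested. Adjusted p-values here and below come from edgeR's quasi-likelihood test, two-sided, with Benjamini-Hochberg adjustment over all genes tested. The count filter asks for counts in 6 libraries only, so a serpin present in 1 group alone could pass it. Among the 34, 22 were higher in HP-AKI (64.7%), against 37.7% of all genes, and 6 were lower, against a background of 35.2%. The median log2 fold change, HP-AKI over sham, was 0.83 over the 34 serpins and 0.04 over all genes tested. Changes of at least 2-fold were found for 17 serpins that rose and 5 that fell, with backgrounds of 16.1% and 17.1%. At least 16-fold rises were found for 6 serpins, among them Serpina3i, Serpina3n, Serpina9, Serpinb1b and Serpinb1c, against 1.47% of all genes. Serpina3i, Serpina9, Serpinb1b and Serpinb1c had 2, 2, 4 and 6 sham counts and passed the count filter through HP-AKI alone. These genes could only be called higher, as could Serpina3c, Serpina3m and Serpinb9b among the 22. The 6 HP-AKI values did not overlap the 6 sham values for 21 of 34 serpins (61.8%), against 52.4% of all genes. Of these, 16 were higher in HP-AKI (background 26.7%) and 5 lower (background 25.8%).

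**Figure D1:**
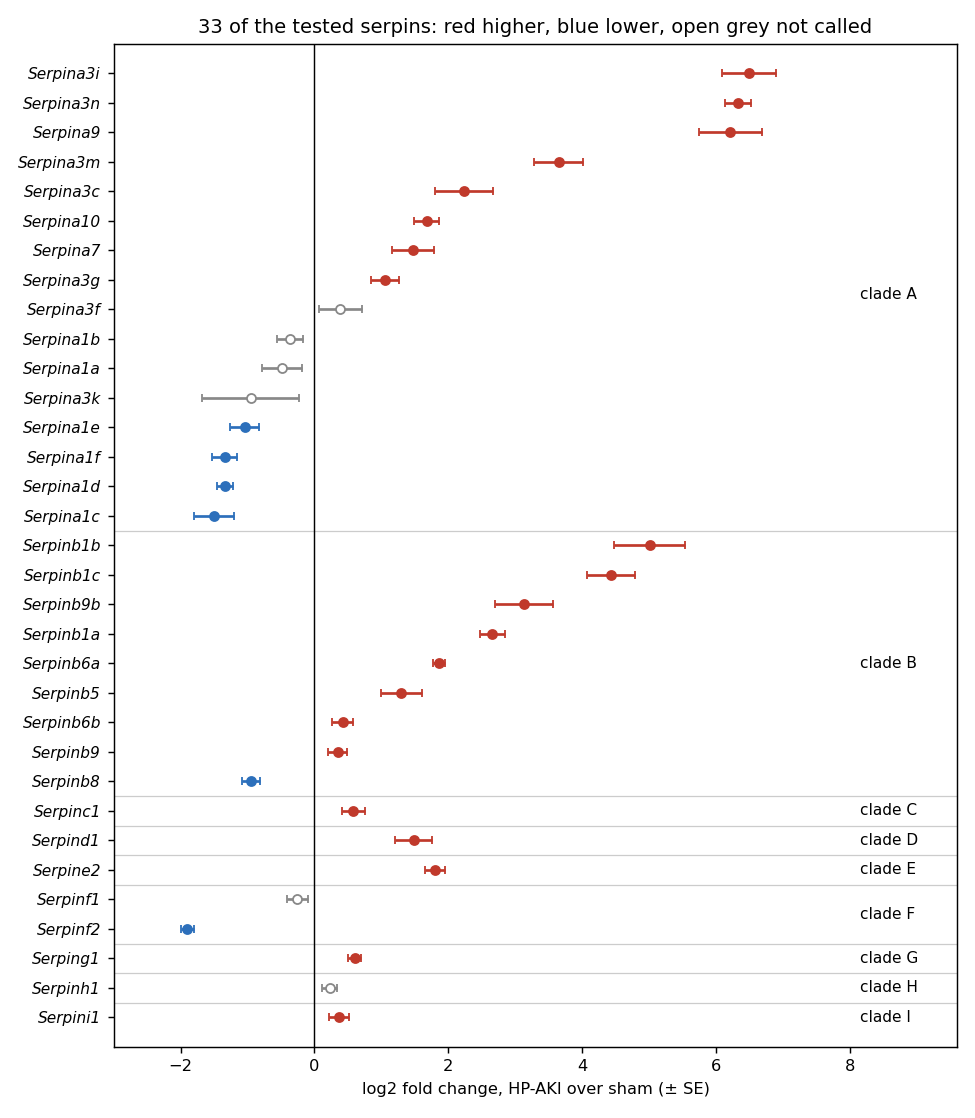
Log2 fold change (HP-AKI over sham) of 33 of the 34 tested serpins, ordered by clade, with the SE as bars; filled red points were higher, filled blue points lower and open grey points not called at an adjusted p of 0.05. Points run from 6.49 for Serpina3i to -1.90 for Serpinf2, and the fitted values of Serpina3i and Serpina9 rest on 2 sham counts each.

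The family's total level differed little while its make-up changed. Summed over the 60 genes, serpins had 1113 ± 116 CPM in HP-AKI and 1027 ± 40.5 CPM in sham (SD, n = 6 each). Per kilobase of listed gene length, the scale on which genes are compared with each other here, the sum was 409 ± 38.6 in HP-AKI and 424 ± 16.9 in sham. Serpina1d, Serpina1f and Serpinf2 made up 25.9% ± 3.56 of the per-kilobase total in HP-AKI and 70.5% ± 1.21 in sham. Serpinb1a, Serpina3n and Serpinb6a made up 29.5% ± 3.17 in HP-AKI and 4.08% ± 0.583 in sham. These 2 sets were formed after the values were seen, so the shares describe the turnover and test nothing. By rank per kilobase, Serpinb1a was first and Serping1 second in HP-AKI, and Serpina1d was first and Serpinf2 second in sham. Serpina3n stood at rank 5 in HP-AKI and rank 22 in sham.

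**Figure D2:**
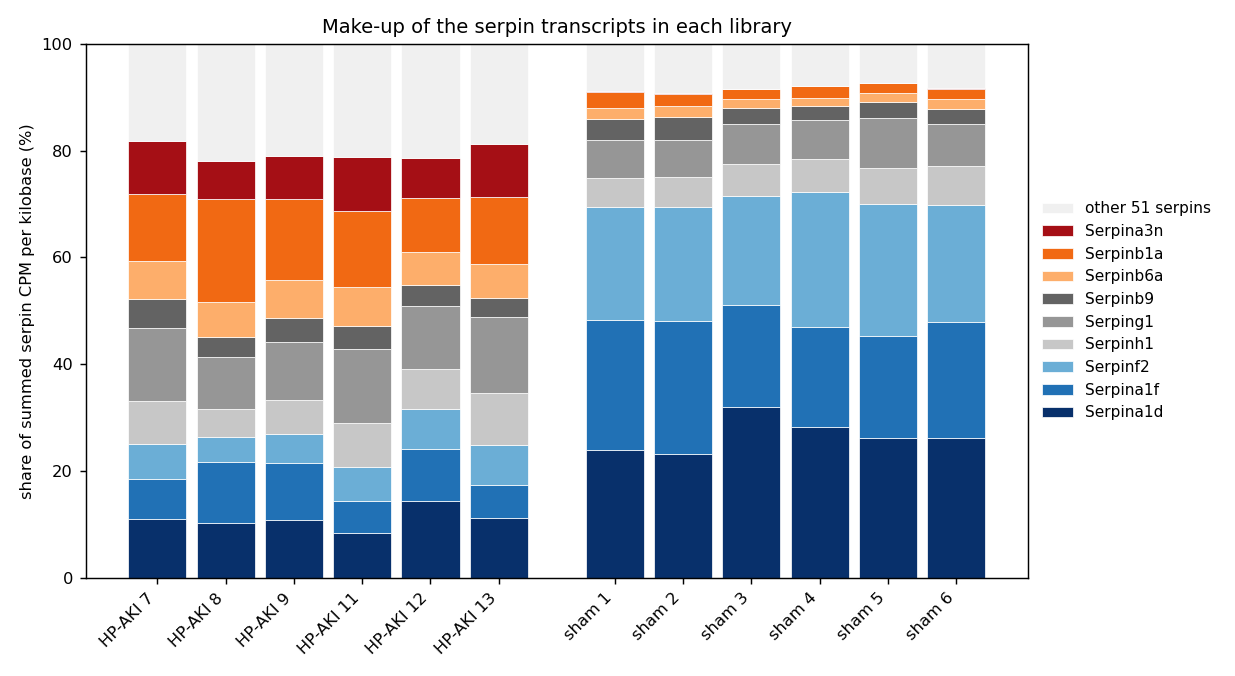
Share of the summed serpin CPM per kilobase (%) held by 9 serpins and by the other 51, in each of the 6 HP-AKI and 6 sham libraries. Serpina1d, Serpina1f and Serpinf2, in blue, held 20.7% to 31.7% in HP-AKI libraries and 69.4% to 72.3% in sham libraries.

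Among the larger clades, clade B, the intracellular serpins, held a per-kilobase share of 28.6% ± 3.65 in HP-AKI and 10.2% ± 1.75 in sham. Clade F held 6.52% ± 1.19 in HP-AKI and 22.7% ± 2.01 in sham, and clade A 32.3% ± 3.35 in HP-AKI and 51.9% ± 2.13 in sham. In none of these 3 clades did the 2 groups of libraries overlap.

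Among serpins of plasminogen activation and of plasmin, Serpine2 rose and Serpinf2 fell. Serpine2 (chr1:79794197-79861180) encodes protease nexin-1, an inhibitor of thrombin and plasminogen activators. Its level was lowest at 46.0, median 83.2 and highest at 101 CPM in HP-AKI, against 18.9, 22.6 and 25.1 CPM in sham. The groups did not overlap, and HP-AKI 12 was the lowest of its group. Serpine2 rose by 1.80 ± 0.15 (SE) on the log2 scale (adjusted p 3.83e-08).

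Serpinb2, known as plasminogen activator inhibitor 2, was too low to be tested, with 47 counts in HP-AKI and 7 in sham. Its HP-AKI libraries ranged between 0 and 0.438 CPM with a median of 0.239, and its sham libraries between 0 and 0.0609 with a median of 0.0286. HP-AKI 12 and 13 lay within the sham range and the other 4 above it. Its exons overlap those of Serpinb10 on the same strand by 176 bases. Serpine3 had 4 counts in HP-AKI and 0 in sham.

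Serpinf2 (chr11:75431732-75439591) encodes alpha-2-antiplasmin, the fast inhibitor of plasmin, which in mice is made in liver and kidney. Its level was lowest at 51.2, median 59.2 and highest at 68.0 CPM in HP-AKI, against 197, 211 and 259 CPM in sham. Both groups were tight and widely apart. Serpinf2 fell by 1.90 ± 0.10 on the log2 scale, to a level 3.74-fold below sham (adjusted p 1.90e-10).

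The neighbouring gene Serpinf1 (chr11:75409769-75422701) encodes pigment epithelium-derived factor, a secreted protein that inhibits no protease. Its levels were 1.22, 1.60 and 1.98 CPM in HP-AKI and 1.52, 1.94 and 2.25 CPM in sham, so the groups overlapped. Its log2 fold change was -0.25 ± 0.16 (adjusted p 0.163).

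**Figure D3:**
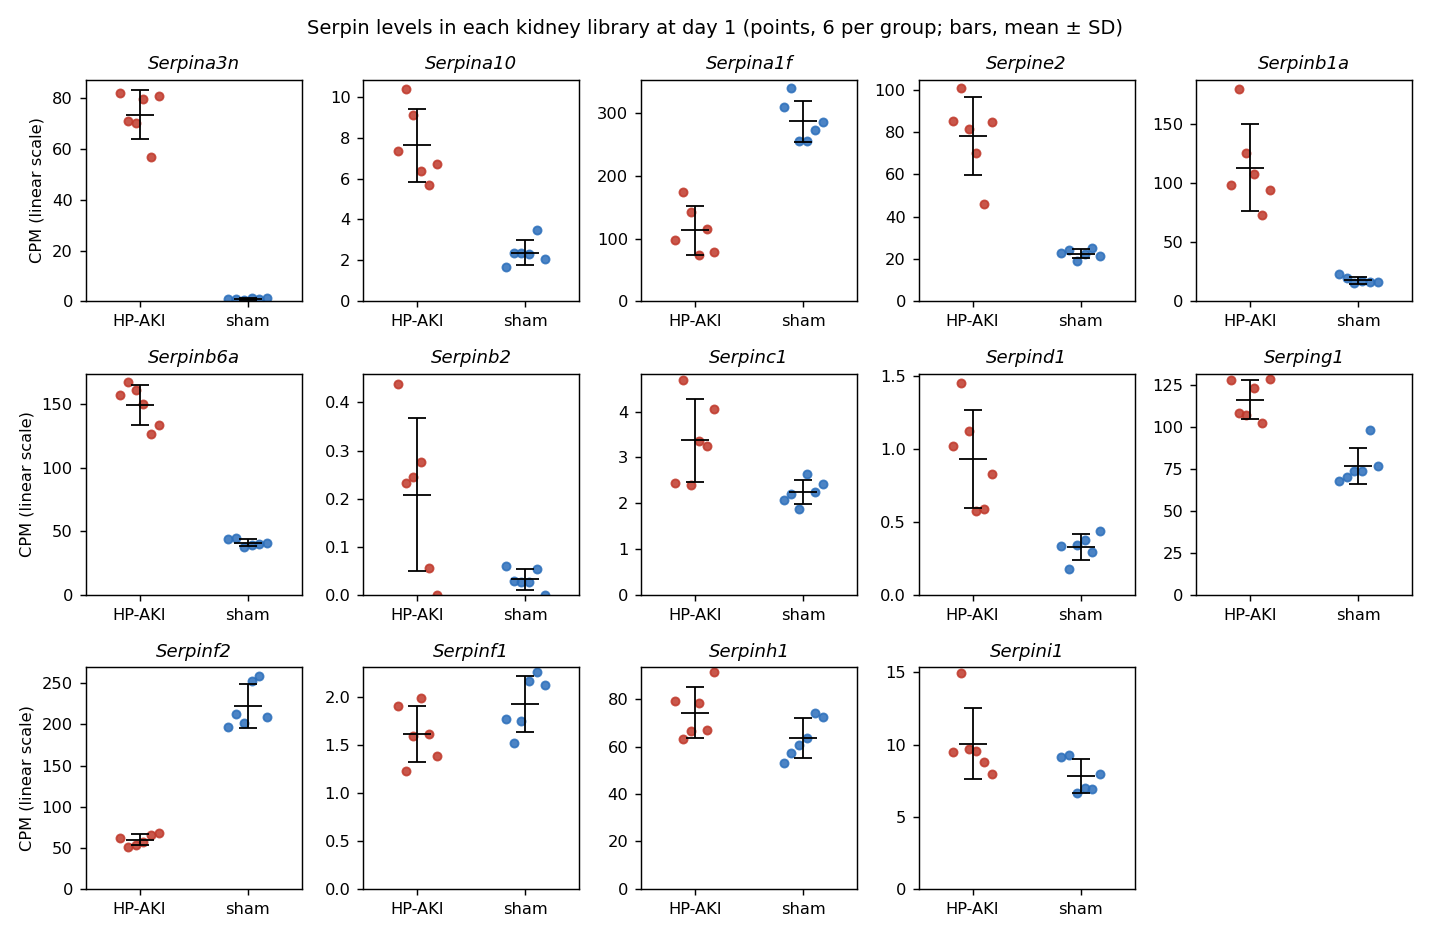
CPM of 14 serpins in each library on linear axes, with a point per library and bars for the mean ± SD of 6 libraries per group. The groups are wide apart for Serpina3n and Serpinf2 and overlap for Serpinb2, Serpinc1, Serpinf1, Serpinh1 and Serpini1.

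Each serpin of the coagulation cascade that could be tested was higher, by modest folds and at low levels. Over all genes tested, 37.7% were higher. Serpina10 (chr12:103614786-103631444) encodes the protein Z-dependent inhibitor of activated factor X. Its levels were 5.71, 7.05 and 10.4 CPM in HP-AKI, against 1.67, 2.33 and 3.49 CPM in sham, without overlap. Serpina10 rose by 1.68 ± 0.19 on the log2 scale (adjusted p 9.95e-07).

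Serpind1 (chr16:17331371-17343575) encodes heparin cofactor II, an inhibitor of thrombin. It had 0.577, 0.926 and 1.46 CPM in HP-AKI, against 0.182, 0.340 and 0.439 CPM in sham. The groups did not overlap, at 204 counts in HP-AKI and 73 in sham, and the log2 fold change was 1.48 ± 0.28 (adjusted p 1.82e-04). Serpina5, the protein C inhibitor, was not tested, with 4 counts in HP-AKI and 0 in sham.

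Serpinc1 (chr1:160978585-161005863) encodes antithrombin. It had 2.40, 3.31 and 4.69 CPM in HP-AKI, against 1.88, 2.23 and 2.64 CPM in sham, and HP-AKI 7 and 9 lay within the sham range. Antithrombin RNA rose by 0.58 ± 0.17 on the log2 scale (adjusted p 0.00706). Without HP-AKI 8 and sham 1 and 2 together it was 0.39 with an adjusted p of 0.0653. Up to 2942 bases of its exons overlap Zbtb37 on the other strand, whose level was 46.7 CPM in HP-AKI and 50.4 CPM in sham. The library kit does not mark strand, so reads of the 2 genes cannot be told apart there.

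Serping1 (chr2:84765387-84775444) encodes C1 inhibitor, which blocks the first complement proteases and plasma kallikrein. Its levels were 103, 116 and 129 CPM in HP-AKI, against 67.7, 74.0 and 98.1 CPM in sham. The groups came close without overlapping, because sham 5 lay above the other sham libraries. It rose by 0.60 ± 0.10 on the log2 scale (adjusted p 4.79e-05).

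The alpha-1-antitrypsin genes were lower or not called. Alpha-1-antitrypsin is an inhibitor of neutrophil elastase and related enzymes. Mice carry several copies side by side, and which proteases each copy inhibits was not examined here. Serpina1d (chr12:103763594-103773592) had 44.5, 62.9 and 74.3 CPM in HP-AKI, against 134, 158 and 188 CPM in sham, without overlap. It fell by 1.34 ± 0.12 on the log2 scale (adjusted p 6.93e-08). Serpina1f (chr12:103688044-103695529) is a more distant copy, at rank 6 of the serpins per kilobase in HP-AKI and rank 3 in sham. It had 73.1, 106 and 174 CPM in HP-AKI, against 256, 280 and 340 CPM in sham. Its groups did not overlap, and its log2 fold change was -1.34 ± 0.18 (adjusted p 9.63e-06). Serpina1c was 2.83-fold (adjusted p 2.76e-04) and Serpina1e 2.06-fold (adjusted p 5.12e-04) lower, at no more than 2.15 CPM on average in either group. Exons of Serpina1c also overlap an antisense RNA by 251 bases.

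The remaining copies, Serpina1a and Serpina1b, did not pass. Serpina1a had 10.3 ± 5.83 CPM in HP-AKI and 14.4 ± 3.28 CPM in sham (log2 fold change -0.48, adjusted p 0.157). Its HP-AKI libraries split, with 9 and 12 at 17.8 and 17.7 CPM and the other 4 at 5.47 to 8.53 CPM. Without HP-AKI 9 the log2 fold change was -0.73 and without HP-AKI 12 it was -0.71, both past the threshold. Serpina1b had a log2 fold change of -0.37 ± 0.19 (adjusted p 0.0948), which passed in 4 of 20 alternatives. Of the 50-base stretches in their transcripts, 57.6% in Serpina1a, 29.5% in Serpina1b, 74.2% in Serpina1c, 50.9% in Serpina1d and 34.6% in Serpina1e also occur in another gene. Reads of these 5 copies may have been split or lost in counting, so their separate values are uncertain. Serpina1f shares 0 such stretches.

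The antichymotrypsin group lies next to the antitrypsin copies on chromosome 12. Of its 7 tested genes, 5 rose, against 37.7% of all genes, and 2 did not pass. Of the 5, Serpina3c, Serpina3i and Serpina3m passed the count filter through HP-AKI alone and could only be called higher. Serpina3n (chr12:104406729-104414329) is an acute-phase inhibitor known to block granzyme B and related enzymes. Its levels were 56.9, 75.4 and 82.2 CPM in HP-AKI, against 0.398, 0.943 and 1.17 CPM in sham. The lowest HP-AKI library was far above the highest sham library. Serpina3n rose by 6.33 ± 0.19 on the log2 scale, or 80.3-fold (adjusted p 1.43e-12), and 6.90% of its 50-base stretches occur in another gene.

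Per kilobase, Serpina3n held 8.77% of the serpin total in HP-AKI and 0.104% in sham, and each of the other 6 tested genes of the group held 0.616% or less in HP-AKI and 0.289% or less in sham. Serpina3i had 248 counts in HP-AKI and 2 in sham, which gives a ratio of 123 (95% counting interval 33.7 to 1021). Serpina3m rose by 3.64 ± 0.36, Serpina3c by 2.24 ± 0.43 and Serpina3g by 1.05 ± 0.20 on the log2 scale. Serpina3g, the next of the group per kilobase, averaged 5.37 ± 1.87 CPM in HP-AKI and 2.58 ± 0.401 CPM in sham. Serpina3f (log2 fold change 0.39, adjusted p 0.290) and Serpina3k (-0.95, adjusted p 0.249) did not pass. Serpina3k had 1 to 59 counts in HP-AKI libraries and 4 to 75 in sham libraries. Between 4.25% and 19.1% of the 50-base stretches of these 6 genes occur in another gene.

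Serpina9, known from germinal-centre B cells, had 205 counts in HP-AKI and 2 in sham, both in sham 6. The ratio was 102 (95% counting interval 27.8 to 845). Its fitted log2 fold change was 6.21 ± 0.47 with all libraries and 8.07 without sham 6, where no sham count is left. Its exons overlap a processed transcript by 72 bases. The B cell marker Cd79a had 67 counts in HP-AKI and 65 in sham.

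Among hormone carriers, Serpina7 encodes thyroxine-binding globulin and averaged 1.22 ± 0.383 CPM in HP-AKI and 0.445 ± 0.227 CPM in sham (log2 fold change 1.47 ± 0.32, adjusted p 6.49e-04). Serpina6, which encodes corticosteroid-binding globulin, had 10 counts in HP-AKI and 9 in sham and was not tested.

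All 9 tested clade B serpins passed, against 72.8% of all genes tested. Of the 9, 8 were higher and 1 lower, against 37.7% and 35.2% of all genes. Of the 8, Serpinb1b, Serpinb1c and Serpinb9b passed the count filter through HP-AKI alone and could only be called higher. Serpinb1a (chr13:32842092-32851185) encodes an inhibitor of neutrophil elastase, cathepsin G and proteinase 3. It had 72.6, 103 and 179 CPM in HP-AKI, against 15.2, 16.8 and 23.2 CPM in sham. The groups were well apart, and the log2 fold change was 2.66 ± 0.19 (adjusted p 6.52e-09). HP-AKI 8 was the highest library for Serpinb1a and also for the summed neutrophil markers, at 156 CPM with 18.9 to 58.7 CPM in the other HP-AKI libraries. It was also the highest HP-AKI library for Serpina10, Serpina1f, Serpinb6a, Serpinc1, Serpind1, Serpine2, Serpini1 and the serpin total. HP-AKI 13, next for the neutrophil markers at 58.7 CPM, had 94.1 CPM of Serpinb1a, below the group median. A relation between the markers and Serpinb1a was not tested. Without HP-AKI 8 the log2 fold change of Serpinb1a was 2.46.

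The close copies Serpinb1b and Serpinb1c were called higher but passed the count filter through their HP-AKI libraries, and under the filter of 1 CPM in 6 samples they were not tested. Per kilobase they held 0.101% and 0.118% of the serpin total in HP-AKI, where Serpinb1a held 14.0%. They had 155 and 144 counts in HP-AKI and 4 and 6 in sham. With 1 library left out, the fitted log2 fold change of Serpinb1b ranged between 4.76 and 6.31, the highest without sham 1, where 1 sham count is left.

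Serpinb6a (chr13:33917918-34002794) is a broad inhibitor of serine proteases inside cells. Its levels were 127, 154 and 168 CPM in HP-AKI, against 37.7, 40.7 and 45.1 CPM in sham, with little spread and no overlap. The log2 fold change was 1.86 ± 0.08 (adjusted p 4.71e-11). Its exons overlap 3 genes on the other strand, Nqo2 by 762 bases (log2 fold change -1.45), 1110046J04Rik by 303 (1.90) and Ripk1 by 241 (0.10).

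Serpinb9, the intracellular inhibitor of granzyme B, and Serpinb6b had small differences at higher levels. Serpinb9 averaged 60.6 ± 10.6 CPM in HP-AKI and 47.6 ± 10.1 CPM in sham (log2 fold change 0.35 ± 0.14, adjusted p 0.0372). Serpinb6b averaged 21.0 ± 4.78 CPM in HP-AKI and 15.7 ± 3.05 CPM in sham (0.42 ± 0.16, adjusted p 0.0251). Their groups overlapped, and Serpinb9 passed in 11 and Serpinb6b in 14 of 20 alternatives. Among the libraries, leaving out any 1 of HP-AKI 7, 8 and 9 and sham 3, 4, 5 and 6 ended the call of Serpinb9. For Serpinb6b, leaving out any 1 of HP-AKI 8, 9 and 11 and sham 3, 4 and 6 did so.

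The 2 clade B genes tested on chromosome 1 went in opposite directions. Serpinb5 encodes maspin, which inhibits no serine protease, and averaged 1.12 ± 0.422 CPM in HP-AKI and 0.455 ± 0.128 CPM in sham (log2 fold change 1.30 ± 0.30, adjusted p 0.00117). Serpinb8, an inhibitor of furin in human cells, was the clade's single fall, at 13.3 ± 1.91 CPM in HP-AKI and 25.5 ± 4.59 CPM in sham (-0.94 ± 0.13, adjusted p 1.10e-05).

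Serpinh1 (chr7:99345375-99353230) encodes HSP47, a collagen chaperone of the endoplasmic reticulum that inhibits no protease. Its levels were 63.0, 72.8 and 91.5 CPM in HP-AKI, against 52.9, 62.2 and 74.2 CPM in sham, with overlap. The log2 fold change of 0.23 ± 0.11 did not pass (adjusted p 0.0713). It passed with scaling by library size alone (0.34, adjusted p 0.0155) and without sham 5 (0.27, adjusted p 0.0405).

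Serpini1 (chr3:75557547-75643495) encodes neuroserpin, an inhibitor of tissue-type plasminogen activator best known from neurons. It had 7.99, 9.52 and 14.9 CPM in HP-AKI, against 6.66, 7.47 and 9.28 CPM in sham. The groups overlapped, and HP-AKI 8 was apart from the rest of its group. The log2 fold change was 0.36 ± 0.15 (adjusted p 0.0414), and 0.20 with an adjusted p of 0.127 without HP-AKI 8. Leaving out any other HP-AKI library except 12 and 13, or any sham library except 1 and 2, also ended the call. RLE scaling (adjusted p 0.0548), upper-quartile scaling (0.0756) and no filter (0.0737) ended it too, so Serpini1 passed in 9 of 20 alternatives.

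Along chromosome 12, the falls lay in 1 stretch and all rises but that of Serpina10 in the next. Counts of genes called here are read against 37.7% of all genes higher and 35.2% lower. The 8 serpins between Serpina10 and Serpina1e (chr12:103614786-103958975 on GRCm38) had 7 tested members, of which 1 rose, 4 fell and 2 did not pass. The 14 serpins between Serpina11 and Serpina3n (chr12:103980243-104414329) had 8 tested members, of which 6 rose, 0 fell and 2 did not pass. On chromosome 13, the 15 serpins between Serpinb1a and Serpinb6a (chr13:32842092-34002794) had 7 tested members, and all 7 rose, although Serpinb6b and Serpinb9 passed in 14 and 11 of 20 alternatives. Among these 7, Serpinb1b, Serpinb1c and Serpinb9b passed the count filter through HP-AKI alone, so they could only be called higher. Among the 6 that rose on chromosome 12, the same holds for Serpina9, Serpina3c, Serpina3i and Serpina3m. The 11 serpins between Serpinb5 and Serpinb8 on chromosome 1 (chr1:106861173-107610484) had 2 tested members. The boundary on chromosome 12 was drawn after the values were seen.

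**Figure D4:**
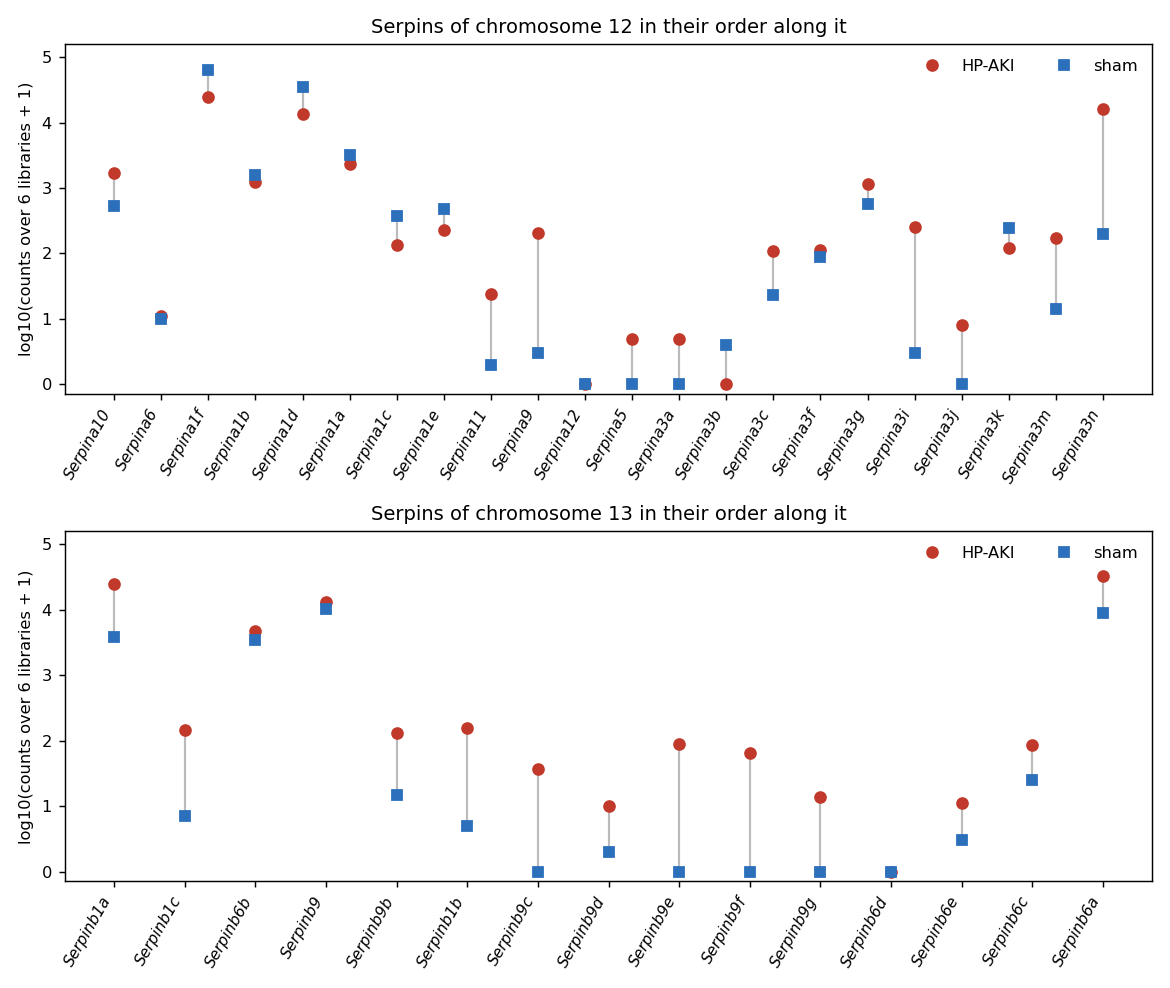
Counts summed over 6 libraries per group, as log10(counts + 1), for the 22 serpins of chromosome 12 and the 15 of chromosome 13 in their order along each chromosome; red circles are HP-AKI and blue squares sham. HP-AKI lies below sham for Serpina1f to Serpina1e, and above sham for each chromosome 13 gene that had a count.

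Another 21 serpins had counts but too few to be tested, between 1 and 109 over all 12 libraries. Of these, 18 had more counts in HP-AKI and 3 more in sham, and the same split over all genes under the filter was not computed. Several of these serpins share sequence, so the split is not read as a result about the family. Serpinb9c, Serpinb9e, Serpinb9f and Serpinb9g, copies next to Serpinb9, were counted in all 6 HP-AKI libraries and in no sham library. They had 36, 87, 65 and 13 counts in HP-AKI, and with the sham sum set to a floor of 3 counts they were at least 11.9-fold, 28.8-fold, 21.5-fold and 4.30-fold higher. Between 18.02% and 78.7% of their 50-base stretches occur in another gene, so the 4 values are not independent. These floors and intervals cover counting error only.

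In the same tier, Serpinb6c had 85 counts in HP-AKI and 24 in sham. Serpina11 had 23 counts in HP-AKI and 1 in sham, or a ratio of 22.8 (95% counting interval 3.70 to 940), and 35.7% of its 50-base stretches occur in another gene. The sham-only genes were Serpinb12 with 18 counts (at least 6.05-fold lower in HP-AKI), Serpinb7 with 8 counts (at least 2.69-fold lower) and Serpina3b with 3 counts.

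Genes that meet the serpins were read from 7 lists, chosen with earlier results of these data known. Over all genes tested, 37.7% were higher and 35.2% lower. Of 30 proteases that serpins inhibit, 21 were tested, and 8 rose (38.1%), 10 fell (47.6%) and 3 did not pass, with a median log2 fold change of -0.09 against 0.04 over all genes. Masp1, a lectin-pathway protease held by C1 inhibitor, rose by 2.82 ± 0.18. The other complement proteases of the list fell, Masp2 by 1.00 ± 0.33 (adjusted p 0.0128), C1s1 by 0.44 ± 0.10 (adjusted p 9.65e-04) and C1ra by 0.24 ± 0.10 (adjusted p 0.0408). Klkb1, which encodes plasma prekallikrein, fell by 2.22 ± 0.21. By CPM, which is not corrected for length, the highest of the list was Ctsl, a lysosomal cysteine protease, with 2606 ± 446 CPM in HP-AKI and 1013 ± 81.7 CPM in sham.

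The 2 plasminogen activators, singled out after their values were seen, differed from each other. Plat, tissue-type plasminogen activator, had 270 ± 82.0 CPM in HP-AKI and 78.7 ± 13.3 CPM in sham (log2 fold change 1.78 ± 0.18, adjusted p 3.78e-07). Plau, urokinase, had 631 ± 109 CPM in HP-AKI and 672 ± 103 CPM in sham (-0.09 ± 0.13, adjusted p 0.522).

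The list of plasminogen and thrombin receptors, cofactors and clearance receptors held 14 higher (77.8%, against 37.7% of all genes), 3 lower (16.7%, against 35.2%) and 1 not called among 18 tested genes, with a median of 1.92. Plaur, the urokinase receptor, rose by 5.31 ± 0.21 and Procr, the protein C receptor, by 4.60 ± 0.19. The highest by CPM, Lrp2, which encodes the tubular endocytic receptor megalin, had 497 ± 38.3 CPM in HP-AKI and 3740 ± 343 CPM in sham (-2.91 ± 0.09). Lrp2 and Cubn also stand in the proximal tubule marker list, in which 9 of 9 genes fell; the part of the tubule markers in these falls was not tested.

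Of 18 tested inhibitors of other families, 7 rose (38.9%), 6 fell (33.3%) and 5 did not pass, with a median of -0.08. These shares are near the 37.7% higher and 35.2% lower of all genes. Timp1, an inhibitor of metalloproteases, rose by 6.63 ± 0.30, and Pi15, a trypsin inhibitor, by 3.42 ± 0.30. Timp3, the highest by CPM, had 2307 ± 390 CPM in HP-AKI and 3276 ± 529 CPM in sham (-0.51 ± 0.13).

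Collagen genes and folding enzymes, the partners of Serpinh1, had 10 higher, 5 lower and 10 not called of 25 tested and a median of 0.18. The share higher is near the 37.7% of all genes, and the share lower is under their 35.2%. Col4a1 and Col4a2, the chains of basement membrane collagen, rose by 2.23 ± 0.19 and 1.94 ± 0.19. P4hb, a subunit of prolyl hydroxylase and the highest by CPM, had 547 ± 19.5 CPM in HP-AKI and 668 ± 29.4 CPM in sham (-0.29 ± 0.06).

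In 3 lists of pathways known to act on serpin genes, 85.7%, 78.6% and 91.7% of the tested genes were higher, against 37.7% of all genes. Interleukin 6 family signalling had 12 of 14 tested genes higher, 1 lower and 1 not called, with a median of 2.82. Il6 rose by 6.50 ± 0.46 and Lif by 5.01 ± 0.21. Among the 12, Il6 and Il11 had 12 and 37 sham counts and passed the count filter through HP-AKI alone. These genes could only be called higher. The highest gene of this list by CPM, the shared receptor chain Il6st, rose by 0.23 ± 0.07. TGF-beta and SMAD signalling had 11 of 14 higher, 1 lower and 2 not called, with a median of 0.96. Thbs1, an activator of TGF-beta and the highest of that list by CPM, rose by 2.21 ± 0.17 and the receptor gene Tgfbr1 by 1.55 ± 0.18. Heat shock factor 1 and chaperones had 11 of 12 higher and 1 not called, with a median of 2.17. Hspa1a rose by 6.46 ± 0.24, Hspa1b by 5.68 ± 0.29 and the highest by CPM, Hspa8, by 1.11 ± 0.09.

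**Figure D5:**
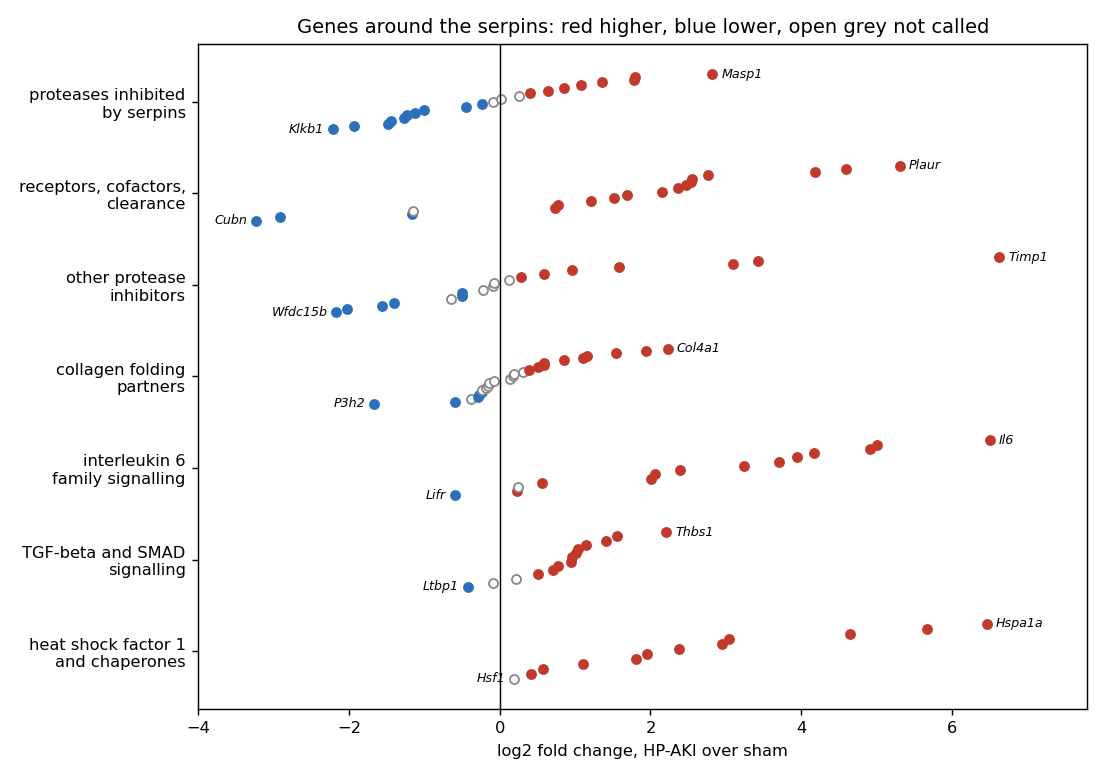
Log2 fold change (HP-AKI over sham) of the tested genes in 7 lists of serpin targets, receptors, other inhibitors and pathways; red is higher, blue lower and open grey not called, and the gene at each end of a list is named. Receptors and cofactors run from -3.23 for Cubn to 5.31 for Plaur, and proteases lie on both sides of 0.

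Markers of other cell types also differed between the groups, in both directions, and their part in the serpin changes was not tested. Their counts too stand beside 37.7% of all genes higher and 35.2% lower. All 5 tested neutrophil markers rose, at a summed 18.9 to 156 CPM in HP-AKI and 1.91 to 3.64 CPM in sham. Of these, Retnlg had 22 sham counts, passed the count filter through HP-AKI alone and could only be called higher. Mpo and Elane were near 0 with 5 and 2 counts in HP-AKI and 5 and 0 in sham. Of 7 macrophage and monocyte markers 2 rose and 4 fell, at a summed 88.2 to 133 CPM in HP-AKI and 102 to 139 CPM in sham. All 4 tested platelet markers rose, with 8.83 to 15.9 CPM in HP-AKI and 4.34 to 7.65 CPM in sham. Fibroblast and pericyte markers rose for 5 of 7 and fell for 1, at 454 to 594 CPM in HP-AKI and 307 to 331 CPM in sham. Endothelial markers rose for 3 of 7 and fell for 1, at 498 to 736 CPM in HP-AKI and 472 to 514 CPM in sham.

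Hepatocyte markers were read because many plasma serpins are made in liver. Of 6 tested, 3 fell and 0 rose, at a summed 369 to 996 CPM in HP-AKI and 1400 to 1707 CPM in sham. Most of that sum was 1 gene, Cyp2e1, with 576 ± 193 CPM in HP-AKI and 1423 ± 108 CPM in sham, while Apoa1 and Ahsg were under 1 CPM and not called. Alb was at 24.5 ± 7.28 CPM in HP-AKI and 19.9 ± 4.51 CPM in sham, a log2 fold change of 0.30 that did not pass (adjusted p 0.183). Lymphocyte markers fell for 3 of 4 tested, at a summed 0.565 to 0.874 CPM in HP-AKI and 3.35 to 3.76 CPM in sham. Of these, Cd3e and Cd3g had 12 and 21 counts in HP-AKI and passed the count filter through sham alone. These genes could only be called lower. Fat markers fell for 1 of 4, at 17.2 to 34.6 CPM in HP-AKI and 96.5 to 140 CPM in sham. Of the fat markers Car3 fell and made up most of the sum, with 15.1 to 23.99 CPM in HP-AKI libraries and 93.1 to 133 CPM in sham libraries. Podocyte markers rose for 3 of 4 and fell for 1, and mesothelial markers rose for 2 of 3 tested. Of the mast cell and adrenal lists, 1 marker each was tested, with the mast cell marker Kit lower and the adrenal marker Star higher.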

How the data were processed

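The deposited table lists 43346 genes for 12 mouse kidney libraries, 6 HP-AKI and 6 sham at day 1. Groups follow the treatment label of each library. Per the labels' protocols, Trizol and a Qiagen kit were used for RNA, and the library kit was TruSeq RNA v2, which does not mark strand. Per the submitters' processing notes, the build was GRCm38 and the tools included edgeR, featureCounts and TopHat2 2.1.0, while settings, filters and roles are not given in the sources used here. The counts deposited by the authors are whole numbers for each gene and library, without normalization. The authors also deposited RPKM values, whose implied per-library total was 2.98 to 3.47 times the sum of the counts, and these served only for that check. No library pair was near-identical, with a chi-square of at least 9.02 per gene within a group.

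After filterByExpr by group and TMM scaling, a two-sided quasi-likelihood F-test in edgeR 4.0.16 (R 4.3.3, with limma 3.58.1) compared the groups, with Benjamini-Hochberg adjustment over 17470 genes. An SE was taken as the absolute log2 fold change over the root of F. The median SE was 0.141, at a common coefficient of variation between libraries of 0.178. CPM values carry the TMM factors, and a count of 3 over a group equals 0.0136 CPM in HP-AKI and 0.0137 CPM in sham. Ratios with 1 to 3 counts in a group carry exact binomial intervals at 95% confidence. No set test was run.

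Shared 50-base stretches and exon overlaps were computed from GENCODE vM21 transcripts of GRCm38, and promoters come from RefSeq, GRCm38.p6, where 51 of 60 serpins matched by symbol. Python 3.11.15 with pandas 2.3.3, numpy 2.4.6, matplotlib 3.10.9 and Biopython 1.88 made tables, alignments and figures. The steps were tested on simulated counts with planted changes. The members, the 7 gene lists, the 14 marker lists and the tests were chosen with earlier results of these data known, and 6 list genes were matched by identifier under an older symbol. The rule for values by library named 11 serpins chosen for their known roles, the member of each clade with the highest mean CPM, and the 2 called members per clade with the largest change among those with a mean of at least 1 CPM. Alternatives were RLE, upper-quartile and library-size scaling, a filter of 1 CPM in 6 samples, no filter, DESeq2 1.42.0, limma-voom, each library left out in turn, and HP-AKI 8, sham 1 and sham 2 left out together. Some genes of these rules and lists are not reported here.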

Additional observations from a re-analysis of the deposited data

Results flagged for a closer look

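For the serpins with values by library and for the serpin total, each group of 6 was checked for a library far from the rest by Dixon's criterion, 32 groups in all. Chance alone marks about 1 group in 20, and 2 were marked. Serpini1 had 14.9 CPM in HP-AKI 8, with the next HP-AKI library at 9.71 CPM. Serping1 had 98.1 CPM in sham 5, with the next sham library at 76.8 CPM. Without sham 5 the log2 fold change of Serping1 was 0.67, and without HP-AKI 8 that of Serpini1 was 0.20.

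Serpin rows that are not protein-coding entered no comparison, and 4 of them had counts in HP-AKI above the sham level. The pseudogene Serpina3h had a mean of 0.421 CPM in HP-AKI (92 counts) and 0.0238 CPM in sham (5 counts). Serpinb1-ps1 had 0.219 CPM in HP-AKI (48 counts) and 0.0222 CPM in sham (5 counts). Serpina3d-ps had 0.154 CPM in HP-AKI (35 counts) and 0 in sham. A processed transcript listed under the symbol Serpina11 had 0.0638 CPM in HP-AKI (14 counts) and 0 in sham. Reads of protein-coding copies in these rows were not tested for.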

How the results depend on the processing

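No paired analysis was possible because the HP-AKI and sham libraries share no sample numbers. Of the 28 serpins called, 24 passed in all of their 19 or 20 alternatives, and all 34 tested serpins kept the sign of their change. The 4 that did not pass throughout were Serpinb6b, Serpinb9, Serpini1 and Serpinc1. Of the 6 not called, Serpina1a, Serpina1b and Serpinh1 passed in at least 1 alternative and 3 in none. The number of serpins called higher was 22, and 13 with a filter of 1 CPM in 6 samples, which tests fewer genes. Without a filter, 55 serpins were tested, and 29 were higher and 8 lower. The shares of all genes under either filter setting are not given here, so these counts are not read against a background. The collagen folding list had 5 genes lower, against 3 with library size alone and 8 with HP-AKI 8, sham 1 and sham 2 left out together; the cause was not tested. Leaving out 1 library gave 19 to 23 serpins higher and 6 to 8 lower, and 6274 to 6743 of all genes higher and 6018 to 6435 lower. The median over all genes tested was 0.16 on the log2 scale with library size alone and 0.04 with TMM, and each of the 34 tested serpins had the same sign under both. Depth limits the values of the 21 serpins with too few counts for the filter.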

Other observations

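Agt, which encodes angiotensinogen, has the serpin fold without the Serpin symbol and was left out by the rule for members. It averaged 18.9 ± 6.41 CPM in HP-AKI and 30.4 ± 8.25 CPM in sham (SD, n = 6 each), with overlapping groups. The log2 fold change was -0.68 ± 0.22 (edgeR, adjusted p 0.0105). Of the other serpin rows left out, Serpinb10 had 10 counts in HP-AKI and 20 in sham, and Serpina3e-ps had 11 counts in HP-AKI and 2 in sham.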
